A study of Rattus norvegicus with 22 samples.

Results

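Arntl, Arntl2, Npas2 and Vipr2 are 3 genes of the circadian clock and the gene of a receptor for vasoactive intestinal peptide (VIP). They were taken by name, and their symbols were matched to Ensembl identifiers through the study's own tables of called genes, so these are 4 of the 1822 identifiers that carry a symbol among the 32545 that were counted. Cortical RNA was sequenced from both hemispheres of 11 adult male Sprague-Daley rats (spelled so in the labels), which gave 22 samples. In 6 rats (numbers 81, 83, 85, 88, 90 and 96) a probe with an inflatable balloon was driven into the right frontal brain, a model called penetrating ballistic brain injury (PBBI), and the right hemisphere is the ipsilateral one. In 5 sham rats (numbers 82, 84, 86, 91 and 94) the same procedures, craniectomy included, were done without inserting the probe. All rats carried EEG and EMG electrodes, implanted days before, were kept in a light and dark cycle, and gave tissue 24 h after surgery. With this single time of sampling, a shift in the phase of a daily rhythm and a change in its level cannot be told apart. In bulk tissue, fewer cells of a type and less RNA per cell cannot be told apart either.

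The circadian clock is a feedback loop of transcription that runs in nearly every cell. BMAL1, the product of Arntl, pairs with CLOCK or with NPAS2, and the pair binds E-box elements and switches on the Per and Cry genes, whose products then repress it. Arntl itself is driven through ROR elements (RORE), which ROR proteins activate and NR1D proteins repress. BMAL2, from Arntl2, is a paralog of BMAL1 that can also pair with CLOCK. NPAS2 is a relative of CLOCK with high expression in the forebrain. VIPR2, also called VPAC2, is a G protein-coupled receptor for VIP and PACAP, best known for keeping neurons of the suprachiasmatic nucleus in step; the samples here are cortex, and that nucleus is not part of it.

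The ROR element of Arntl is shown because it is the element through which the clock is known to control this gene. RefSeq promoters of assembly GRCr8 were matched for 4 of 4 genes, and the 250 bases before each start were searched on both strands for the E-box (CACGTG), the RORE, the D-box (TTATGTAA or TTACGTAA) and the CRE (TGACGTCA). In the line that follows, which lies at chr1:176766300-176766327 on the plus strand just before the start of Arntl used in the promoter table, the capitals mark the RORE.
Arntl: gaaggcagaAAGTAGGTCAgggacggag
This was the only match in the 4 windows, and it lies from 19 to 10 bases before that start. The start of the whole RefSeq gene, at position 176766222, lies upstream of the element, which may therefore be inside a transcript that begins there. Of 27457 promoter windows of the same length, 98 (0.357%) held a RORE, against 5.79% for the E-box, 0.925% for the D-box and 1.70% for the CRE. The windows of Arntl2, Npas2 and Vipr2 held none of these letters. A match is a description of the sequence and not a site of binding. The counts were made on another assembly, Rnor 6.0.

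Total counts were between 42085341 and 63412426 per sample. The ipsilateral sample of PBBI rat 85 stood apart: its mean correlation with its own group over all genes was 0.835, against 0.933 to 0.974 in the other samples. The titles of 3 libraries (both of rat 81 and the contralateral one of sham rat 82) carry the letters PFC, which no other title has. Defining markers of neurons could not be checked, because none of the 8 listed was paired with a symbol.

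Npas2 and Arntl were the more abundant of the 4, and Vipr2 and Arntl2 lay far below them. Levels were compared per gene length as RPKM, which divides reads by gene length and library size, each from n = 5 or 6 rats. In sham ipsilateral cortex the order was Npas2 (16.1 ± 1.58, SD), Arntl (14.01 ± 0.680), Vipr2 (0.7098 ± 0.168) and Arntl2 (0.215 ± 0.0674), and no neighbours in that order overlapped. In PBBI ipsilateral cortex Arntl (8.70 ± 1.78) and Npas2 (8.53 ± 2.97) overlapped. There, Arntl2 (0.996 ± 0.798) had a higher mean than Vipr2 (0.283 ± 0.0949), the reverse of the sham order, but the ranges overlapped (0.0678 to 2.32 and 0.178 to 0.418). Contralaterally the mean order was that of sham ipsilateral cortex in both groups of rats. Npas2 and Arntl overlapped in sham (18.1 ± 2.90 and 13.8 ± 2.09) and not in PBBI (16.4 ± 2.91 and 10.9 ± 1.18). Vipr2 and Arntl2 overlapped in PBBI (0.635 ± 0.204 and 0.325 ± 0.110) and not in sham (0.755 ± 0.259 and 0.257 ± 0.166).

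All values from here on are TMM-normalized CPM, which scales reads to library size, and the contralateral value of the same rat stands beside the ipsilateral one. Npas2, a partner of BMAL1, was lower in the ipsilateral than in the contralateral cortex in all 6 PBBI rats. The 2 hemispheres held 26.3 and 62.8 CPM in rat 81 (ipsilateral first), 55.2 and 66.0 in rat 83, and 43.1 and 59.8 in rat 85. They held 40.9 and 94.0 in rat 88, 33.4 and 65.4 in rat 90, and 19.8 and 72.1 in rat 96. The ipsilateral level was thus between 27.4% (rat 96) and 83.6% (rat 83) of the contralateral one, and no ipsilateral PBBI value reached the lowest contralateral one, as for 0.864% of genes on the lower side. In the sham rats the values were 63.9 and 94.6 in rat 82, 64.5 and 75.5 in rat 84, 64.5 and 78.0 in rat 86, 71.0 and 79.3 in rat 91, and 79.5 and 59.8 in rat 94. The level was thus lower ipsilaterally in 4 sham rats and higher in rat 94. The mean difference, ipsilateral minus contralateral on the log2 CPM scale, was -1.003 ± 0.581 (SD, n = 6) in PBBI (two-sided exact sign-flip permutation test, p = 0.0312, the smallest that 6 rats allow). In sham it was -0.16 ± 0.357 (SD, n = 5; exact test, p = 0.375, where 5 rats allow no less than 0.0625). Over all genes tested, 11.4% were lower ipsilaterally in every PBBI rat. In edgeR the log2 fold change within PBBI was -0.93 (standard error 0.232, adjusted p = 0.0437), and 0.588% of the 15973 genes tested were lower at this threshold. With each PBBI rat left out in turn, Npas2 passed only without rat 83 or rat 85, and the adjusted p reached 0.176. The calls over all genes moved too, from 568 with 6 rats to 1149 without rat 85 and 728 without rat 83, but 246 without rat 81, 42 without rat 90, 6 without rat 96 and 1 without rat 88. Without the libraries titled PFC, which leaves out rat 81, it was -0.88 (adjusted p = 0.128 from edgeR).

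Vipr2 was likewise lower ipsilaterally in all 6 PBBI rats. The ipsilateral and contralateral values were 1.03 and 3.23 CPM in rat 81, 1.81 and 2.34 in rat 83, and 0.768 and 1.505 in rat 85. They were 0.834 and 4.09 in rat 88, 1.46 and 2.92 in rat 90, and 1.45 and 2.401 in rat 96. The ipsilateral level was between 20.4% (rat 88) and 77.3% (rat 83) of the contralateral one, and the 2 sets of 6 values overlapped through rat 85, whose contralateral value was the lowest on that side. In sham the values were 4.202 and 3.04 in rat 82, 2.395 and 2.66 in rat 84, 2.51 and 2.52 in rat 86, 2.93 and 2.87 in rat 91, and 3.31 and 5.24 in rat 94. The receptor was thus higher ipsilaterally in 2 sham rats and lower in 3, with rat 86 nearly level. The mean log2 difference was -1.14 ± 0.677 (SD, n = 6; exact test, p = 0.0312) in PBBI and -0.06 ± 0.404 (SD, n = 5; exact test, p = 0.688) in sham. In edgeR the log2 fold change within PBBI was -1.16 (adjusted p = 0.0559), and with the rat as a replicate block, which compares each rat with itself, it was -1.15 (standard error 0.295, adjusted p = 0.0451). In that paired fit 3.62% of genes were lower at the threshold, and with each rat left out Vipr2 passed only without rat 83 or rat 85 (highest adjusted p = 0.136). All genes called in the paired fit numbered 1646 with 6 rats, 3356 without rat 85, 1817 without rat 83 and between 263 and 558 without one of the others. Counts of Vipr2 were low, between 34 and 271 reads a sample.

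Arntl, the gene of BMAL1, differed less between hemispheres than Npas2 and Vipr2. Ipsilateral and contralateral values in PBBI were 28.1 and 27.8 CPM in rat 81, 29.8 and 34.7 in rat 83, and 22.1 and 37.6 in rat 85. They were 30.9 and 32.8 in rat 88, 27.3 and 31.6 in rat 90, and 17.0 and 29.5 in rat 96. Rats 85 and 96 held 58.9% and 57.7% of their contralateral level, while the other 4 lay between 85.9% and 101%. Sham values were 43.5 and 41.7 in rat 82, 38.6 and 41.1 in rat 84, 42.5 and 50.3 in rat 86, 43.0 and 39.2 in rat 91, and 40.7 and 33.0 in rat 94. Ipsilateral sham values lay close together, and 3 of 5 were above the other side. The mean log2 difference was -0.34 ± 0.348 (SD, n = 6; 5 of 6 lower; exact test, p = 0.0625) in PBBI and 0.03 ± 0.209 (SD, n = 5; exact test, p = 0.75) in sham. In edgeR the log2 fold change within PBBI was -0.32 (standard error 0.166, adjusted p = 0.367), and -0.33 (adjusted p = 0.166) with the replicate block.

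Arntl2, the gene of BMAL2, went the other way in 5 of 6 PBBI rats, and rat 85 stood against them. Ipsilateral and contralateral values were 2.87 and 0.685 CPM in rat 81, 0.838 and 0.279 in rat 83, and 0.136 and 0.882 in rat 85. They were 4.63 and 0.845 in rat 88, 1.53 and 0.666 in rat 90, and 1.93 and 0.539 in rat 96. In the 5 rats the ipsilateral level was between 230% and 548% of the contralateral one, and in rat 85 it was 15.4%. Sham values were 0.405 and 0.982 in rat 82, 0.323 and 0.131 in rat 84, 0.321 and 0.346 in rat 86, 0.650 and 0.697 in rat 91, and 0.444 and 0.414 in rat 94. Sham rats thus moved in both directions, 2 higher ipsilaterally and 3 lower. These levels rest on few reads, between 6 and 322 a sample. The mean log2 difference was 1.07 ± 1.77 (SD, n = 6; exact test, p = 0.219) in PBBI and -0.04 ± 0.826 (SD, n = 5; exact test, p = 0.688) in sham. In edgeR it was 1.61 (standard error 0.594, adjusted p = 0.165) within PBBI and 1.97 (adjusted p = 0.0279) without rat 85. In the fit of all 6 rats 2.97% of genes were higher at the threshold, and without rat 85 5.14% were. With the replicate block in edgeR, Arntl2 had 1.32 (standard error 0.607, adjusted p = 0.196), and 1.85 (adjusted p = 0.00634) without rat 85. In these paired fits 6.68% of genes were higher at the threshold, and without rat 85 1886 of 16021 were. Over the 22 samples Arntl2 moved with the TMM scaling factor of the library (Pearson r = 0.77, and 0.73 with group means subtracted), and the lowest factor, 0.706, was that of rat 85 ipsilaterally. A low factor raises the CPM of a sample, and that sample held 6 reads of Arntl2. With the RLE method of scaling in place of TMM, the log2 fold change within PBBI was 1.62. The part of the scaling in the Arntl2 values was not tested further.

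**Figure D1:**
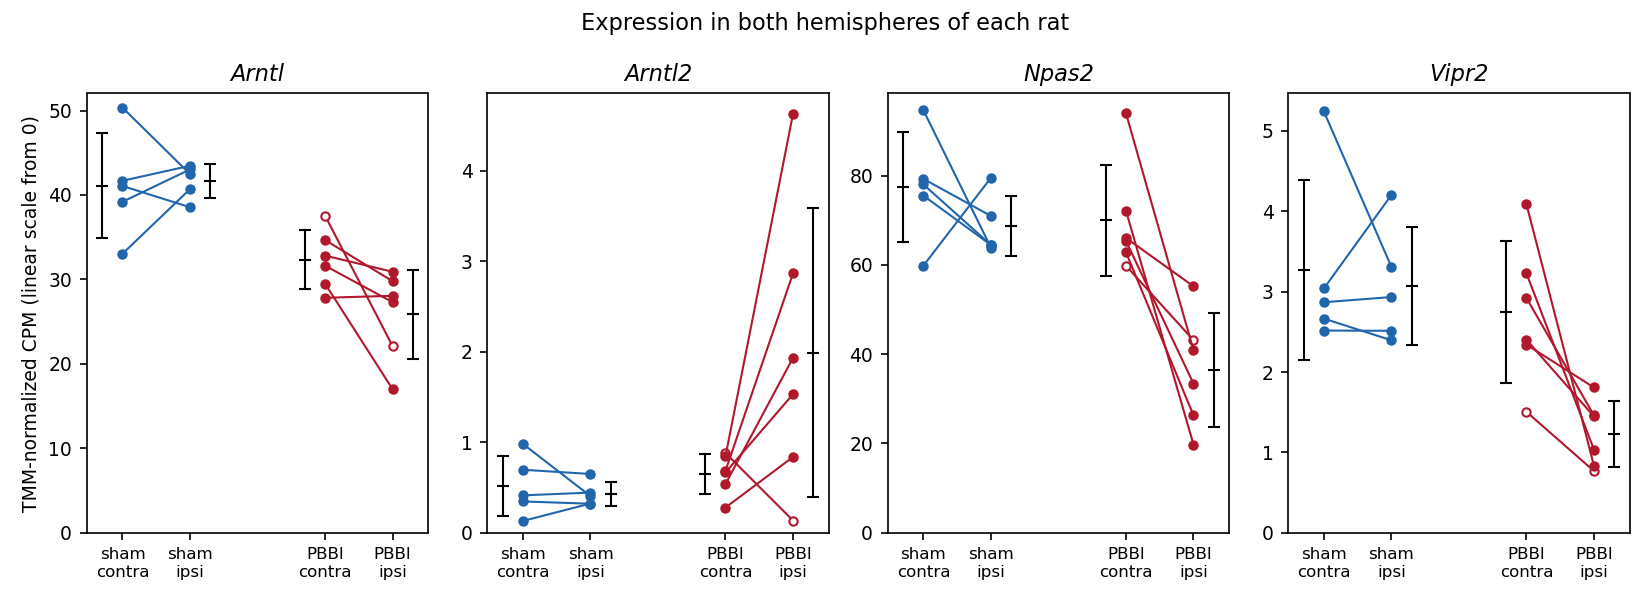
TMM-normalized CPM of the 4 genes (vertical axes, linear, from 0, each gene on its own scale) in the contralateral and ipsilateral hemisphere of 5 sham rats (blue) and 6 PBBI rats (red); each line joins the 2 samples of a rat, open circles are rat 85, and black bars are the mean ± SD of each group. Npas2 and Vipr2 fall from contralateral to ipsilateral in every PBBI rat, and Arntl2 rises in 5 and falls in rat 85.

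Within sham rats none of the 15747 genes tested passed in edgeR between hemispheres (47 had an unadjusted p under 0.05, and DESeq2 also called 0), and none of the 4 did. Their log2 fold changes were 0.02 for Arntl (standard error 0.146), -0.25 for Arntl2 (0.468), -0.17 for Npas2 (0.152) and -0.09 for Vipr2 (0.274). The comparisons of hemispheres reuse the ipsilateral samples on which the study called these genes, so they are not independent of that choice.

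The contralateral hemisphere answers whether the genes also differed away from the probe, and it did not enter the study's ipsilateral calls, though it comes from the same rats. Arntl was lower there in PBBI, with 27.8 to 37.6 CPM (median 32.2, n = 6) against 33.0, 39.2, 41.1, 41.7 and 50.3 CPM in the 5 sham rats. Of the PBBI rats, 4 of 6 lay below every sham rat, and the lowest sham value was that of rat 94. The log2 CPM difference was -0.34 (two-sided exact permutation test over 462 splits of the rats, p = 0.0173, smallest possible 0.00433). It did not pass across genes: the edgeR log2 fold change was -0.35 (standard error 0.142, unadjusted p = 0.0300, adjusted p = 1.00). None of the 15907 genes passed contralaterally in edgeR (0%), while 366 (2.30%) had an unadjusted p under 0.05, and DESeq2 called 0 with its normal prior and 3 without. With each rat left out, the edgeR log2 fold change of Arntl was between -0.41 and -0.26. Its unadjusted edgeR p rose above 0.05 without rat 81, 82, 84, 86, 90 or 96 (highest 0.100, without rat 86). The exact p was not adjusted over the genes tested. Without the libraries titled PFC the Arntl log2 fold change was -0.31 (unadjusted p = 0.0950, adjusted p = 1.00, edgeR).

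The other 3 genes showed smaller or more scattered contralateral differences. Npas2 held 59.8 to 94.0 CPM (median 65.7) in PBBI and 59.8 to 94.6 (median 78.0) in sham (log2 fold change -0.14, standard error 0.157). Vipr2 held 1.505 to 4.09 CPM (median 2.66) in PBBI and 2.52 to 5.24 (median 2.87) in sham (log2 fold change -0.25, standard error 0.291). Arntl2 held 0.279 to 0.882 CPM (median 0.675) in PBBI and 0.131 to 0.982 (median 0.414) in sham (log2 fold change 0.35, standard error 0.452). The groups overlapped for each of these genes, and the exact tests gave p = 0.329, 0.372 and 0.342 in this order.

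Ipsilateral PBBI against sham is given as a description, since the study chose the genes on it. Arntl lay between 17.0 and 30.9 CPM (median 27.7) in PBBI and between 38.6 and 43.5 (median 42.5) in sham. Npas2 lay between 19.8 and 55.2 CPM (median 37.2) in PBBI and between 63.9 and 79.5 (median 64.5) in sham. Vipr2 lay between 0.768 and 1.81 CPM (median 1.24) in PBBI and between 2.395 and 4.202 (median 2.93) in sham. For these 3 genes the groups did not overlap, as for 1.19% of all genes tested on the lower side. Arntl2 lay between 0.136 and 4.63 CPM (median 1.73) in PBBI and between 0.321 and 0.650 (median 0.405) in sham, with 5 PBBI rats above every sham rat and rat 85 below. The edgeR log2 fold changes were -0.69 (standard error 0.183) for Arntl, -0.91 (0.244) for Npas2, -1.32 (0.309) for Vipr2 and 2.20 (0.664) for Arntl2. At an adjusted p of 0.05, 1 of the 4 (Vipr2) was called by edgeR and all 4 by DESeq2 with its normal prior, where 4.68% and 7.47% of all genes were called. The study's own calls also came from DESeq2 on these samples.

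Whether the injury effect differed between the sides was tested as an interaction over all 22 samples, which again include the ipsilateral ones. No gene of the 4 passed in edgeR, where 0.326% of 16587 genes did, while 9.89% had an unadjusted p under 0.05. The estimates, the ipsilateral effect minus the contralateral one, were -0.77 (standard error 0.288, unadjusted p = 0.0141, adjusted p = 0.296) for Npas2 and -1.07 (0.406, unadjusted p = 0.0148, adjusted p = 0.301) for Vipr2. For Arntl the estimate was -0.34 (0.214, adjusted p = 0.703) and for Arntl2 1.87 (0.809, adjusted p = 0.424). With the replicate block, 4.27% of genes passed and the adjusted p was 0.108 for Npas2, 0.109 for Vipr2, 0.303 for Arntl and 0.362 for Arntl2. Tested gene by gene on the differences per rat (exact permutation test over 462 splits), PBBI minus sham was -0.84 for Npas2 (p = 0.0260, 4 of 6 PBBI rats below every sham rat) and -1.08 for Vipr2 (p = 0.00866, 5 of 6 below). The same exact test gave -0.38 (p = 0.0606) for Arntl and 1.11 (p = 0.234) for Arntl2. For Arntl the log2 fold change was -0.69 ipsilaterally and -0.35 contralaterally, and a difference between the sides was not shown.

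**Figure D2:**
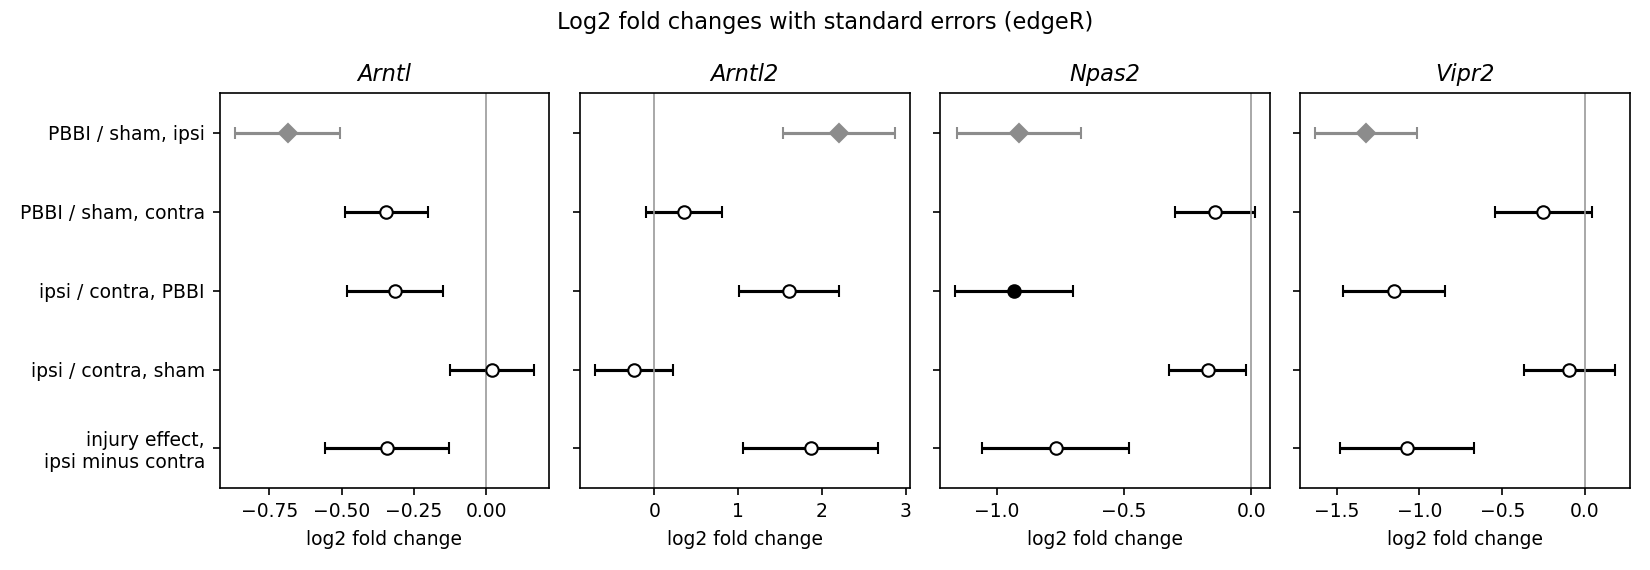
Log2 fold changes from the edgeR fits without a block (horizontal axes, each gene on its own scale) with standard errors for the 5 comparisons. The standard errors are derived from the F value of the test. Grey diamonds mark the ipsilateral contrast on which the genes were chosen, and among the circles filled ones have an adjusted p of 0.05 or less. Only Npas2 within PBBI is filled, and the contralateral estimate of Arntl is -0.35.

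The 4 genes were then followed across all 22 samples, as correlations of log2 CPM. These are descriptions: a rat gives 2 samples, the 4 groups differ in level, and the samples are therefore not independent points. Over all samples Arntl and Npas2, the partners in the BMAL1 dimer, went together most closely (Pearson r = 0.77, Spearman rho = 0.65). Npas2 with Vipr2 gave r = 0.70 (rho = 0.65), and Arntl with Vipr2 r = 0.54 (rho = 0.54). Arntl2 ran against the other 3, with r = -0.53 to Npas2, -0.39 to Vipr2 and -0.37 to Arntl (rho = -0.34, -0.24 and -0.43). The scatter plots of the 6 pairs show the ipsilateral PBBI samples apart from the other 16 in most panels.

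**Figure D3:**
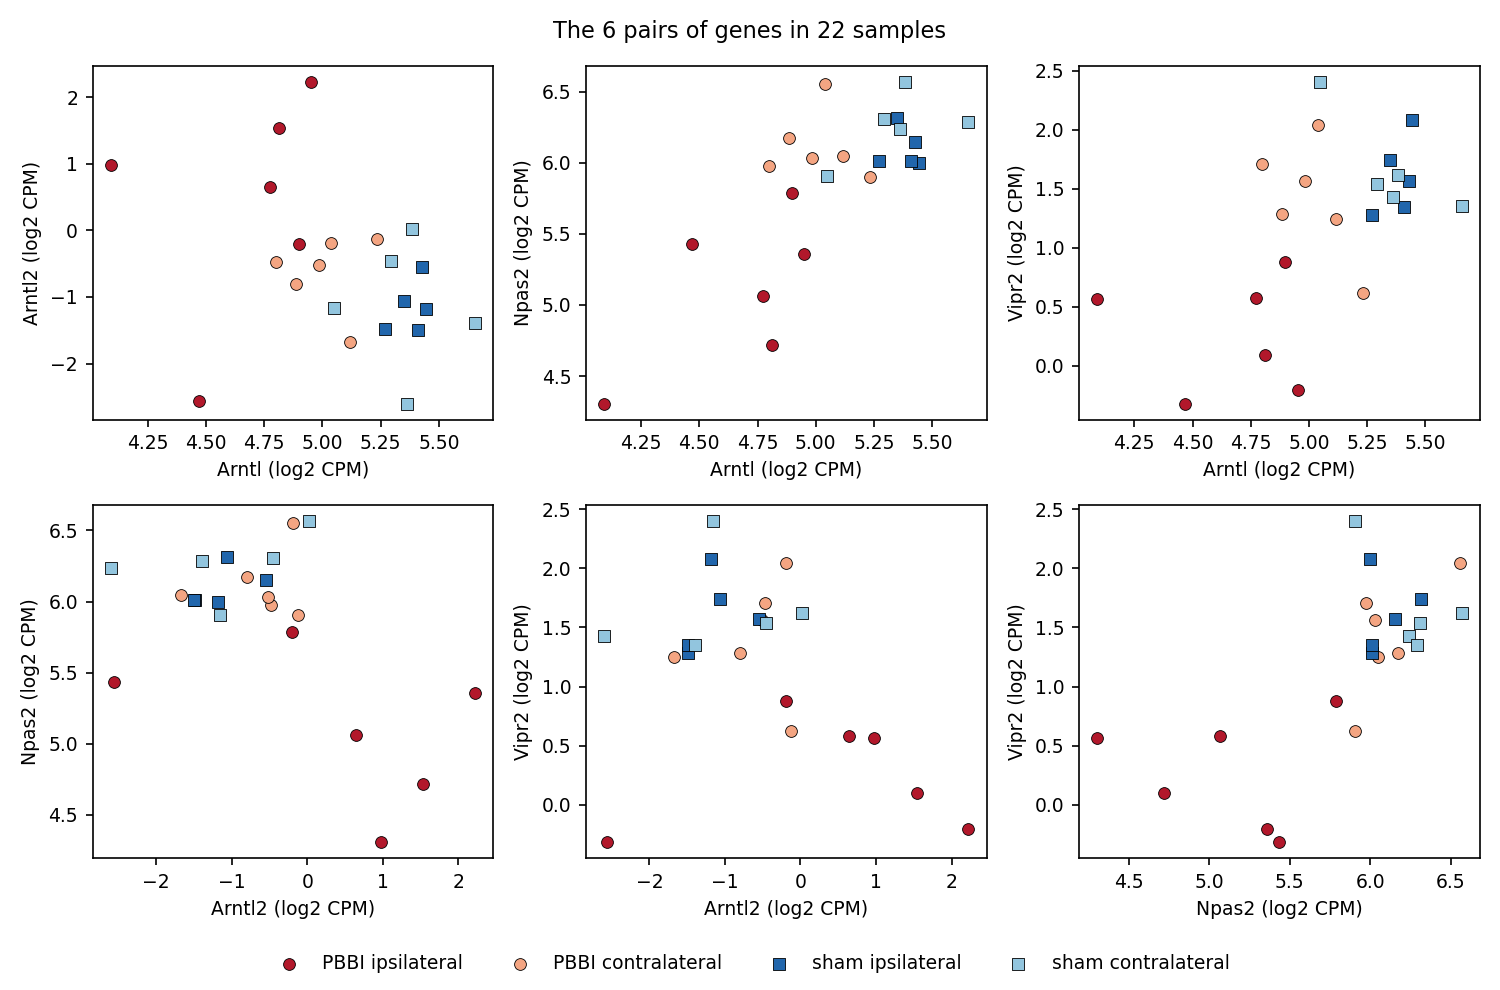
Log2 CPM of each of the 6 pairs of genes in 22 samples, with PBBI in circles (ipsilateral dark red, contralateral light red) and sham in squares (ipsilateral dark blue, contralateral light blue). Ipsilateral PBBI samples lie at the low end of Arntl, Npas2 and Vipr2, with the contralateral samples of PBBI rats 81 and 96 among them for Arntl and that of rat 85 for Vipr2, and in the other 16 samples r lies between -0.30 and 0.25.

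In all 6 pairs the correlations were smaller in size without the ipsilateral PBBI samples, and also with the group means subtracted. In the 16 samples other than ipsilateral PBBI, r was 0.24 for Arntl with Npas2, 0.17 for Npas2 with Vipr2 and -0.14 for Arntl with Vipr2. With the 4 group means subtracted from all 22 samples, Npas2 with Vipr2 fell to 0.02 and Arntl with Vipr2 turned to -0.30. Arntl with Npas2 stayed at 0.51 (rho = 0.21), and at 0.23 without rat 96, whose ipsilateral sample had the lowest level of both genes. Ranked among 16586 genes by r with Arntl, Npas2 stood at place 87 over all samples and at place 403 with group means subtracted. Ranked by r with Npas2, Arntl stood at places 144 and 151. Vipr2 stood at place 355 for Npas2 over all samples and at place 6765 with group means subtracted. Arntl, Npas2 and Vipr2 were chosen on the ipsilateral contrast, and each was lower in PBBI there. High places among all genes over the 22 samples follow in part from that choice and do not by themselves tie the genes together.

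Within each hemisphere, Arntl with Npas2 had r = 0.87 ipsilaterally and 0.41 contralaterally, and with group means subtracted 0.61 and 0.27. Npas2 with Vipr2 had 0.69 and 0.20, and -0.03 and 0.11 with means subtracted. For Arntl2, r was -0.63 and 0.18 with Npas2, -0.43 and 0.02 with Vipr2, and -0.34 and -0.27 with Arntl. With means subtracted these were -0.37 and 0.32, 0.15 and 0.12, and 0.31 and -0.07. Arntl with Vipr2 had r = 0.74 over the 11 ipsilateral samples and -0.27 over the 11 contralateral ones, and with group means subtracted 0.01 and -0.71. The contralateral value stayed between -0.84 and -0.57 with each rat left out, and rat 94, the sham rat with the lowest contralateral Arntl (33.0 CPM) and the highest Vipr2 (5.24 CPM), gave the weakest when it was removed. Between the differences per rat (11 rats), r was 0.53 for Arntl with Npas2, 0.51 for Npas2 with Vipr2 and 0.13 for Arntl with Vipr2. With the means of PBBI and sham subtracted from these differences, r was 0.23, 0.04 and -0.50 in the same order, and for Arntl with Npas2 it was -0.14 without rat 96. The rats with the largest ipsilateral deficits were not the same for each gene: rat 96 for Npas2, rat 88 for Vipr2, and rats 96 and 85 for Arntl. The correlations of Arntl2 depended on rat 85: with Vipr2 r was -0.39 over all samples and -0.70 without that rat, and with Arntl it was -0.37 and -0.60.

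**Figure D4:**
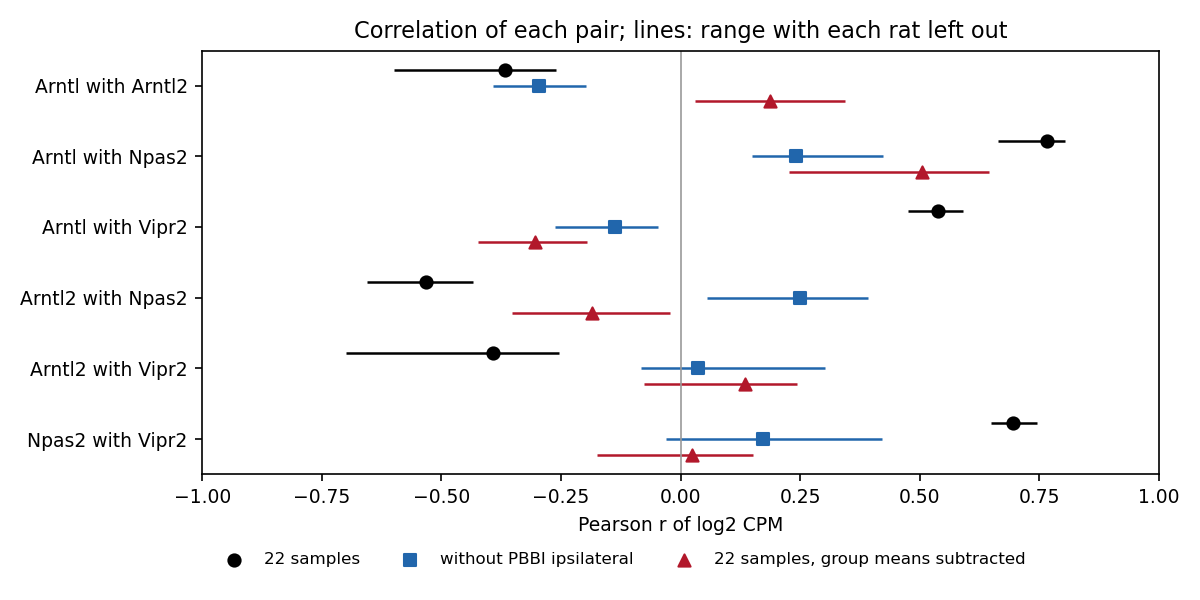
Pearson r of log2 CPM for the 6 pairs (horizontal axis from -1 to 1) over all 22 samples (black circles), over the 16 samples without ipsilateral PBBI (blue squares) and over 22 samples with group means subtracted (red triangles); lines give the range with each rat left out. For Npas2 with Vipr2 the value falls from 0.70 to 0.02 once group means are subtracted, and for Arntl with Npas2 from 0.77 to 0.51.

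The genes most like each member were sought among the 1716 tested genes with a symbol, by r over the 22 samples after group means were subtracted. Nearly all of these symbols come from genes the study called, so the choice was narrow. For Arntl they were Stau2, an RNA-binding protein of neurons (r = 0.83), Rgs7, a regulator of G protein signalling (0.81), and AABR07070801.2 (0.79). For Npas2 they were Fam81a (0.78), Camkk2, a kinase activated by calcium and calmodulin (0.77), and Sidt1 (0.74). For Vipr2 they were Dusp15, a dual-specificity phosphatase (0.82), Kcng4, a potassium channel subunit (0.77), and Gprc5b, an orphan receptor (0.77). For Arntl2 they were AABR07062033.1 (0.84), Pxdn, a peroxidase of the extracellular matrix (0.84), and Stac2 (0.81). Over all 16586 genes, the quartiles of this r were -0.39 and 0.48 for Arntl2 and -0.29 and 0.34 for Vipr2. They were -0.14 and 0.18 for Arntl and -0.14 and 0.11 for Npas2. High values were thus more common for Arntl2, and Stac2 stood at place 26 among all genes.

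Other genes of these pathways could be read only in small part. Of 27 listed genes of the core clock and its outputs, 5 carried a symbol: the 3 members, Timeless and Usp2. Of 5 genes of VIP and PACAP signalling only Vipr2 did, so the levels of the peptides and of the other receptors are not analysed here. Timeless, a protein of replication forks that also binds clock proteins, lay between 2.06 and 7.19 CPM (median 5.47) ipsilaterally in PBBI and between 1.497 and 2.81 (median 2.03) in sham, and its edgeR adjusted p was 0.113. Usp2, a deubiquitinase with a daily rhythm, lay between 4.83 and 16.01 CPM (median 8.65) in PBBI and between 14.01 and 22.6 (median 17.6) in sham (adjusted p = 0.118 from edgeR). Within PBBI, the ipsilateral minus contralateral log2 fold changes were 1.07 for Timeless and -0.70 for Usp2, and neither passed (adjusted p = 0.173 and 0.212, edgeR). Of 12 other genes of the bHLH-PAS family, to which BMAL1 and NPAS2 belong, 2 carried a symbol. Hif1a, the hypoxia-inducible subunit, was higher ipsilaterally within PBBI (log2 fold change 0.77, standard error 0.184, adjusted p = 0.0380, edgeR), with 132 to 251 CPM against 86.8 to 129.8 contralaterally. In that contrast 2.97% of genes were higher at the threshold. Ipsilaterally against sham Hif1a had 0.66 and did not pass (adjusted p = 0.114, edgeR). Its interaction did not pass either (adjusted p = 0.322, edgeR). Ahr, the aryl hydrocarbon receptor, had 0.78 within PBBI (adjusted p = 0.107, edgeR).

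Summed levels of glial and immune markers differed between the groups in which the members differed, but the markers of a list did not all go one way. Nearly all symbols come from genes the study called, the 4 members among them. Differences of the sums between groups, and correlations with them over the 22 samples, therefore follow in large part from that choice. The summed level of 4 of 9 listed astrocyte markers with a symbol was between 2223 and 7416 CPM in ipsilateral PBBI samples, against 461 to 1037 in ipsilateral sham, 628 to 4503 in contralateral PBBI and 574 to 1311 in contralateral sham. Most of this sum was Gfap, an intermediate filament of reactive astrocytes, with a mean of 4564 CPM in ipsilateral PBBI and 575 in ipsilateral sham (log2 fold change 2.99, adjusted p = 0.00407, edgeR). Vim, another intermediate filament, was also higher (2.89, adjusted p = 0.00132, edgeR), whereas Aldh1l1, a folate enzyme of astrocytes, was lower (-0.96, adjusted p = 0.0418, edgeR). Gjb6, a gap junction protein, had -1.53 and did not pass (adjusted p = 0.120, edgeR). The sum of 9 of 13 markers of microglia, monocytes and macrophages was 331 to 1126, 163 to 317, 253 to 325 and 191 to 273 CPM in the same order. Of the 9, Tmem119, a marker of resident microglia, had a log2 fold change opposite to the others, -0.92 ipsilaterally against sham (adjusted p = 0.0799) and -1.20 within PBBI (adjusted p = 0.0354, edgeR), while Lyz2, a lysozyme of myeloid cells, had 1.62 and 1.65 (adjusted p = 0.0677 and 0.0364, edgeR). Over 22 samples, r with the microglia and macrophage sum was -0.88 for Npas2, -0.80 for Vipr2, -0.76 for Arntl and 0.53 for Arntl2, and with group means subtracted -0.58, -0.29, -0.30 and 0.12. With the astrocyte sum r was -0.65 for Npas2, -0.51 for Vipr2, -0.81 for Arntl and 0.64 for Arntl2, and with group means subtracted -0.09, 0.47, -0.37 and 0.39, so that the sign for Vipr2 turned. For 3 markers of endothelium and pericytes the sums were 142 to 275 CPM in ipsilateral PBBI and 106 to 137 in ipsilateral sham, and for 2 markers of neutrophils 4.92 to 167 and 3.18 to 44.6 CPM. Rgs5, the pericyte marker, had a log2 fold change of -0.79 between these groups (adjusted p = 0.316, edgeR). None of these marker sums was at 0 in any group, and no marker of neurons or oligodendrocytes could be read. The part of cell makeup in the differences of the 4 genes was not tested.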

How the data were processed

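Cortical RNA from both hemispheres of 11 rats was measured in 22 samples, grouped by the treatment, hemisphere and animal number in the labels. The authors prepared stranded, ribosomal RNA-depleted libraries, aligned them with STAR 2.4.2a and counted them with featureCounts 1.4.3-p1 on Rnor 6.0 genes; versions and build are from the submitters' processing notes. The deposited values are raw counts per gene, with no normalization. How strand and reads with several alignments were handled is not given in the sources used here. Symbols came from the study's tables, of which only the symbol and identifier columns were read; their other columns hold the authors' comparisons and were not used.

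Counts were fitted in edgeR 4.0.16 (R 4.3.3) by quasi-likelihood, with TMM scaling and filterByExpr, without a block. The p-values were Benjamini-Hochberg adjusted over all genes tested (threshold 0.05). A standard error given for edgeR is the size of the log2 fold change divided by the square root of the F value of the test. A number in the labels marks a rat, and the deviations of its 2 samples from their group means correlated between 0.246 and 0.758. In 7 of 11 rats the ipsilateral sample correlated best with the contralateral sample of its own rat. The rat was therefore also entered as a replicate block (paired fit). Alternatives were RLE scaling, no filter, a minimum of 10 counts in all samples, voom with quality weights (limma 3.58.1), DESeq2 1.42.0 (normal prior or none), a common fit of 22 samples, leaving out the libraries titled PFC, and leaving out each rat. Blocked fits without a rat and correlations over 16 samples were added after the values were seen. Single genes were tested by exact permutation (scipy 1.17.1) on log2 CPM with a prior count of 2. The edgeR fits were tested on simulated counts, and the exact tests on fixed values with known answers. Named genes are the 4 members, the 3 genes with a symbol most correlated with each, and genes of the listed pathways that carry a symbol. The members and lists were chosen with earlier results of these data known. Rats had surgery in weekly groups, and no batch term for the week was fitted.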

Additional observations from a re-analysis of the deposited data

Results flagged for a closer look

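Of 24 groups of 5 or 6 values of the 4 genes that were examined, 2 held a rat far from the others, and chance flags about 1 in 20 such groups. The ipsilateral minus contralateral log2 CPM of Arntl2 was -2.43 in PBBI rat 85, whereas the next lowest PBBI rat had 1.16. The contralateral log2 CPM of Vipr2 was 2.399 in sham rat 94, whereas the next highest sham rat had 1.62.

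For 2 genes the hemisphere difference itself differed between PBBI and sham rats by the exact permutation test of the differences per rat. In that exact test PBBI minus sham was -0.84 on the log2 scale for Npas2 (p = 0.0260) and -1.08 for Vipr2 (p = 0.00866). The interaction fitted across all genes in edgeR did not pass for either (adjusted p = 0.296 and 0.301), and 9.89% of all genes had an unadjusted p under 0.05 in that edgeR fit. The exact test was not adjusted over genes. It also uses the ipsilateral samples on which the study called these genes, so it is not independent of that choice.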

How the results depend on the processing

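Ipsilaterally, PBBI against sham, the 3 genes that edgeR did not call passed under voom with quality weights (log2 fold change -0.60 for Arntl, 2.62 for Arntl2 and -1.02 for Npas2), DESeq2 without prior (-0.67, 2.22 and -0.90), DESeq2 with its normal prior (-0.66, 1.74 and -0.86) and the common fit of 22 samples (-0.69, 2.20 and -0.91). In the same order these fits called 5014 of 16104, 1702 of 22477, 1680 of 22477 and 1655 of 16587 genes. The study's own calls came from DESeq2 on the same ipsilateral samples, so passing there again is a description and supports nothing. Vipr2 was lost without the libraries titled PFC, which in this contrast leaves out only rat 81 (-1.28). With each rat left out the ranges were -0.74 to -0.59 for Arntl, 1.76 to 2.46 for Arntl2, -1.07 to -0.78 for Npas2 and -1.46 to -1.19 for Vipr2. Vipr2 passed only without rat 83 or rat 85. Within PBBI, Npas2 was lost with no filter (-0.95) and without the libraries titled PFC (-0.88). Vipr2 passed with the replicate block, with at least 10 counts per sample and with DESeq2 without prior (each -1.15). It also passed under voom with weights (-1.30), where Arntl2 passed too (1.98). In the same order these fits called 1646 of 15973, 547 of 13827, 1612 of 22124 and 3695 of 15973 genes. Over the unblocked and the paired fits with a rat left out, the ranges were 1.06 to 1.97 for Arntl2, -1.14 to -0.80 for Npas2 and -1.34 to -0.91 for Vipr2. In sham the small differences changed sign: Arntl was -0.0403 and Arntl2 0.53 under voom with weights, Arntl2 was 0.11 without the libraries titled PFC, and with a rat left out the ranges were -0.0348 to 0.0989 for Arntl, -0.42 to 0.24 for Arntl2 and -0.26 to 0.12 for Vipr2. The interaction passed for Npas2 (-0.86) and Vipr2 (-1.25) under voom with weights, where 1663 of 16587 genes were called. In the replicate block fit the interaction passed for Arntl2 without rat 85 (1.93) and for Npas2 without rat 83 or rat 85. Those blocked fits called 1358 of 16505 genes without rat 85 and 1149 of 16534 without rat 83. Over unblocked and paired fits with a rat left out, the ranges were 1.07 to 2.20 for Arntl2 and -0.99 to -0.63 for Npas2. The replicate block changed no other call of the 4 genes. The exact tests of the differences per rat could not pass with 5 rats (smallest p = 0.0625), and the mean differences were -1.15 to -0.83 for Npas2 and -1.30 to -0.92 for Vipr2.

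With group means subtracted, r turned to 0.19 for Arntl with Arntl2, -0.30 for Arntl with Vipr2 and 0.14 for Arntl2 with Vipr2, and moved to 0.51 for Arntl with Npas2, -0.18 for Arntl2 with Npas2 and 0.0244 for Npas2 with Vipr2. Spearman rho was 0.65 for Arntl with Npas2 and -0.34 for Arntl2 with Npas2. The number of genes called ipsilaterally was 753, against 5014 under voom with weights, 1680 and 1702 under DESeq2, 1655 in the common fit and 393 without the libraries titled PFC. Within PBBI it was 568, against 3695, 1612 under DESeq2 without prior, 1646 with the replicate block and 246. For the interaction it was 54, against 1663, 357 and 708 in the same order. With a rat left out, the number called ipsilaterally was between 316 (without rat 91) and 2186 (without rat 85), with 1158 without rat 83 and 316 to 465 without any other. Within PBBI it was between 1 (without rat 88) and 1149 (without rat 85). For the interaction it was 0 without rat 82, 84, 86, 88 or 90, 1 without rat 91 or 94, 2 without rat 96, 58 without rat 85, 98 without rat 81 and 255 without rat 83, and 192 to 1358 with the replicate block. A minimum of 10 counts in every sample left no value for Arntl2. Apart from the construction of each alternative, the cause of these changes was not tested. The low counts of Arntl2 and Vipr2 limit their precision, and group sizes of 5 and 6 limit that of all 4 genes.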
